A study of Mus musculus with 60 samples.

Results

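The RNA of mouse embryonic stem cells (mESCs) carrying a histone-binding mutant of MCM2 (MCM2-2A) was compared with that of cells with intact MCM2 after 12 h of retinoic acid (RA). The 6 libraries were selected by line, treatment and time from their titles, out of 60 in the series. Ctrl MCM2-2A cells were POLE4-dTAG/MCM2-2A cells treated with DMSO (3 libraries), and Ctrl cells were POLE4-dTAG cells treated with DMSO (3 libraries). Both lines descend from E14JU, a 129/Ola embryonic stem cell line, and both carry a degradation tag on POLE4, which DMSO leaves undegraded. The study introduced that tag separately into WT and MCM2-2A cells, so the Ctrl line stands for the MCM2-intact background and is not the direct parent of the other line. Each line was 1 clone, and the MCM2-2A mutation, the clone and its passage history cannot be told apart here. Cells were kept in serum with LIF, held in DMSO for 24 h, and moved to RA medium without LIF for 12 h. The comparison was read beside the same line difference at 0 h of RA (Ctrl MCM2-2A and Ctrl, 3 libraries each) and beside the line difference at 12 h in cultures given the degrader dTAG in place of DMSO (dPOLE4 MCM2-2A and dPOLE4, 3 libraries each), which share no library with it.

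MCM2 is a subunit of the replicative helicase, and its N-terminal tail holds parental histones H3 and H4 at the fork and passes them mainly to the lagging strand. In MCM2-2A cells that histone contact is broken while the helicase still works, and POLE4, a subunit of the leading-strand polymerase, serves histone transfer to the other strand. RA binds RAR and RXR receptors on DNA and switches on Hox genes and its own degrading enzymes, and with LIF withdrawn it takes mESCs out of pluripotency.

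The 6 libraries held between 13551576 and 29980256 counts over 56633 features, of which 17799 genes and repeat subfamilies passed the filter on low counts. Repeats took 7.65 to 7.98% of the counts in Ctrl and 7.71 to 8.59% in Ctrl MCM2-2A, and mitochondrial genes took 1.29 to 3.19% and 1.46 to 2.40%. No same-group pair of libraries agreed within sampling noise, so none was counted as a duplicate. Pluripotency genes were expressed in both lines. Levels are normalised counts (CPM), scaled to library size by TMM over features that passed a filter on low counts. Pou5f1, the core pluripotency factor, stood at 607, 698 and 569 CPM in Ctrl and at 671, 669 and 773 CPM in Ctrl MCM2-2A. Sox2, its partner factor, stood at 223, 255 and 217 CPM and at 204, 209 and 208 CPM, and neither gene passed the test between lines.

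The gene carrying the mutation was itself lower in the mutant line. Mcm2 (ENSMUSG00000002870, chr6:88883474-88898780, minus strand, GRCm38) stood at 474, 519 and 481 CPM in Ctrl and at 265, 266 and 296 CPM in Ctrl MCM2-2A. The groups did not overlap, and the log2 fold change (log2FC, Ctrl MCM2-2A minus Ctrl) was -0.85 (SE 0.07, edgeR quasi-likelihood test, adjusted p = 8.09e-06). Pole4 (ENSMUSG00000030042, chr6:82618992-82705365, minus strand), the tagged gene in both lines, stood at 56.4, 54.0 and 55.9 CPM in Ctrl and at 37.5, 30.0 and 32.9 CPM in Ctrl MCM2-2A, again without overlap. Its log2FC was -0.75 (SE 0.08, edgeR adjusted p = 7.16e-05). A substitution does not remove the transcript, so these counts do not check the genotype. Among the 10 genes of the MCM2-7 helicase and polymerase epsilon, Mcm2 and Pole4 were the 2 called, and the median log2FC of the 10 was 0.17.

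A feature was called where the edgeR adjusted p was under 0.01 and the log2FC was over 0.58 in size, which is the study's fold limit of 1.5. At 12 h of RA, 2589 of 17799 features (14.5%) were called, 1233 higher (6.93%) and 1356 lower (7.62%) in Ctrl MCM2-2A. The libraries of the groups did not overlap for 8586 features (48.2%), among them all 2589 called (100%). The median log2FC of all tested features was -0.00, and the median SE was 0.12. Chromosomes 11, 14 and 15 held 14.7% of the tested features and 37.2% of the called ones, so genes elsewhere were counted apart. Outside these chromosomes, 1602 of 14312 genes (11.2%) were called, 791 higher (5.53%) and 811 lower (5.67%). Their median size of log2FC was 1.02, 825 passed 1 and 171 passed 2, and 1475 were protein coding. The count outside was 1571 when genes of chromosome Y and of an interval on chromosome 6 described next were also set aside.

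**Figure D1:**
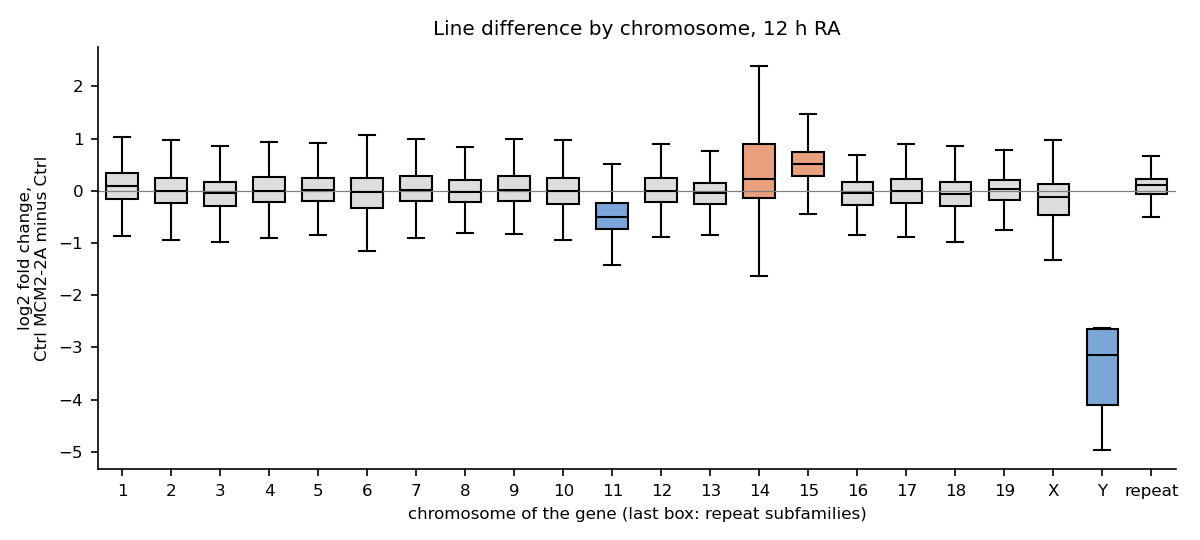
Box plots of the log2 fold change (Ctrl MCM2-2A minus Ctrl, 12 h of RA) of the tested genes of each chromosome and of repeat subfamilies, with the median as the line and the quartiles as the box. Chromosome 11 sits at a median of -0.51, chromosome 15 at 0.51 and chromosome 14 at 0.22, while the 16 other autosomes lie between -0.05 and 0.10.

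The 3 chromosomes differed from the other autosomes along their length. On chromosome 11 the median log2FC was -0.51 (a fold of 0.702), and 514 of 1387 tested genes (37.1%) were called, 484 of them lower and 30 higher. Each of its 55 windows of 25 neighbouring tested genes had a median below 0, from -0.71 to -0.26. Chromosome 15 moved the other way over its whole length, with a median of 0.51 (a fold of 1.43), 240 of 664 genes called, 225 of them higher, and all 26 windows above 0. On chromosome 14 the shift was limited to a run of 9 windows from Fermt2 to Slc25a37 (45458795 to 69241848). The run was picked by its values, as the windows with a median above 0.5. Its median was 0.98 (a fold of 1.98), and 172 of 225 genes were called, 169 higher. The rest of chromosome 14 had a median of -0.03 and 38 of 341 genes called (11.1%). The medians of chromosomes 11, 14 and 15 were -0.48, 0.25 and 0.56 at 0 h and -0.50, 0.24 and 0.51 in the dTAG cultures. No DNA was read in these libraries, and the cause of the shifts was not tested.

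Chromosome X had a median of -0.13, with 88 genes called (15.1% of its tested genes). Genes of chromosome Y, chosen after their values were seen, were much lower: 7 of 8 tested protein-coding genes were called lower, with a median log2FC of -3.15. Ddx3y, an RNA helicase gene, stood at 96.7, 86.4 and 104 CPM in Ctrl and at 3.64, 3.10 and 2.45 CPM in Ctrl MCM2-2A, a log2FC of -4.96 (SE 0.13, edgeR adjusted p = 1.71e-08). Uty, a demethylase homologue, stood at 32.8, 24.9 and 36.8 CPM and at 1.74, 1.86 and 1.71 CPM, a log2FC of -4.17 (SE 0.18, edgeR adjusted p = 3.4e-07). Neither gene overlapped between lines, and Kdm5d stood at 2.18, 3.7 and 2.33 CPM against 0.0513, 0 and 0. Gm47283, the 1 coding gene not called, stood at 494, 589 and 493 CPM against 431, 407 and 418 CPM, and with it the summed level of the coding genes was 708 to 781 CPM in Ctrl and 425 to 448 CPM in Ctrl MCM2-2A. Whether some cells had lost the chromosome or each cell held less of its RNA cannot be told apart in bulk RNA, which also holds for each cell type marker below.

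An interval on chromosome 6 that begins at Mcm2 was lower as a block, and it was also chosen after its values were seen. Of the 25 tested genes from Mcm2 (start 88883474) to Gm45828 (the interval ends at 91759066), 22 were called lower and 1, the noncoding 4930512J16Rik, higher (log2FC 1.58), while Hdac11 and 1810044D09Rik were not called. The median was -0.97, a fold of 0.511. Slc6a6, the taurine transporter, fell furthest among its well-expressed genes, from a mean of 176 to 54.8 CPM (log2FC -1.71), beside Iqsec1 (-1.28), the DNA repair gene Xpc (-1.14) and the nucleoporin Nup210 (-0.88). The 25 tested genes before the interval had a median of 0.06 with 0 called, and the 25 after it had a median of 0.09 with 7 called. Over the interval the median was -1.06 at 0 h and -1.01 in the dTAG cultures. Mcm2 itself (-0.85) lay close to the median of the interval.

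**Figure D2:**
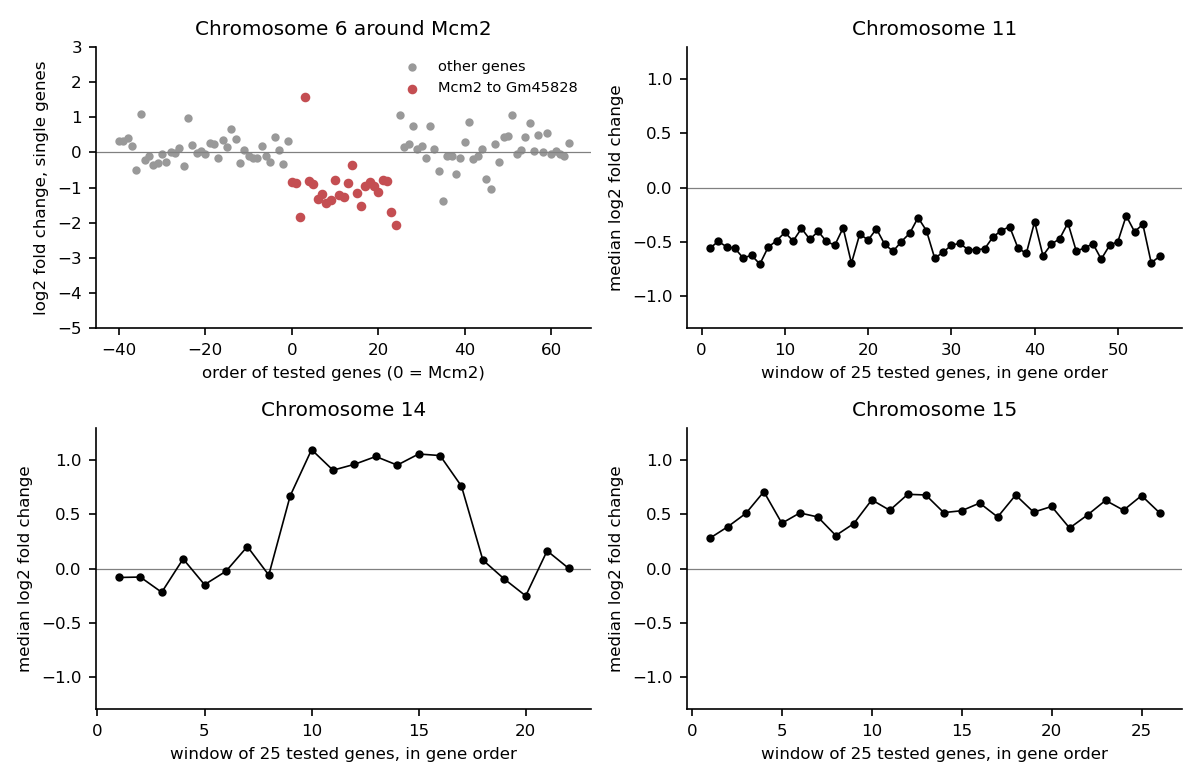
Line difference at 12 h (log2 fold change) in gene order, as single tested genes around Mcm2 on chromosome 6, with Mcm2 to Gm45828 in red, and as medians of windows of 25 tested genes on chromosomes 11, 14 and 15. The red genes lie near -0.97 between flanks near 0, chromosome 11 is below 0 and chromosome 15 above 0 throughout, and chromosome 14 rises over 9 windows only.

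Most of the line difference at 12 h was also seen at 0 h. At 0 h, 3395 of 17972 features were called (18.9%, with 9.83% higher and 9.06% lower), and 1993 features were called at both times, which is 77.0% of those at 12 h and 58.7% of those at 0 h. All but Adcy5 and Dhrs3 of these had the same sign. Outside the 3 chromosomes, 1207 genes were shared, 75.3% of the 12 h calls and 52.3% of the 0 h calls. With dTAG in place of DMSO, 3406 of 18511 features were called at 12 h (18.4%, with 9.88% higher and 8.52% lower), and 2101 were shared with DMSO (81.2% and 61.7%), all with the same sign. A total of 596 features were called at 12 h and not at 0 h, which is no test of a difference between the times.

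RA-responsive genes were then described by role, beginning with the promoters of the feedback genes Rarb and Cyp26a1. Retinoic acid receptors bind pairs of short half-sites, and the pair searched was any 2 half-sites on the same strand with 5 bases between them, on both strands, where a half-site was AGGTCA or its variants with the letters AGTTCA or else GGGTCA or finally GGTTCA. It was found in 32 of 32851 RefSeq promoters (0.0974%), each covering 250 bases before to 50 after the gene's start. Of 61 RA and Hox genes, 39 had a promoter in the table, and Rarb and Cyp26a1 held the pair. The Rarb promoter (chr14:16575427-16575726, minus strand, GRCm38.p6) held it at bases 198 to 214, and the Cyp26a1 promoter (chr19:37697558-37697857, plus strand) held it on the opposite strand at bases 219 to 235. Capitals mark the element in each promoter, printed 5′ to 3′ in the direction of the gene.
Rarb: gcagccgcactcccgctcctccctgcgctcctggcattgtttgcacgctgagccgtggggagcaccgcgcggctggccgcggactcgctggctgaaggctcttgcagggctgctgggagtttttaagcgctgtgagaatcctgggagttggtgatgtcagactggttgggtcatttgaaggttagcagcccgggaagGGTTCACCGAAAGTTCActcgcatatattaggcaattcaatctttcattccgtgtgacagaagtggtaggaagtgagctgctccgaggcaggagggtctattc
Cyp26a1: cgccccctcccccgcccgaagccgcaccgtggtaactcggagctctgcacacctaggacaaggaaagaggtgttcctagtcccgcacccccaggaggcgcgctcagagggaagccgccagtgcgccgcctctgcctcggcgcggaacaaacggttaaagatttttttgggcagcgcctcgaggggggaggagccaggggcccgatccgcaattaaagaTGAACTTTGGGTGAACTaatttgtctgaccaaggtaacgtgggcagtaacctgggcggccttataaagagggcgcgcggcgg
A match is a string of letters, and binding was not measured here.

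Of 9 RA receptor genes tested, 2 were called higher and 0 lower, with a median log2FC of 0.05. The counts of this list and of each list below are to be read against the shares called. These were 14.5% of all features and 11.2% of genes outside the 3 chromosomes. Rarg (chromosome 15), the main RA receptor of mESCs, stood at 180, 188 and 171 CPM in Ctrl and at 353, 340 and 374 CPM in Ctrl MCM2-2A, a log2FC of 0.96 (SE 0.06, edgeR adjusted p = 2.95e-06), which is higher than its chromosome's median of 0.51. Rxrg, an RXR partner gene at low level, stood at 0.683, 0.529 and 0.652 CPM and at 2.97, 3.66 and 3.04 CPM, a log2FC of 2.32 (SE 0.23). Both genes were without overlap between the lines. Rara (log2FC -0.32) and Rarb (-0.43, edgeR adjusted p = 0.0376) were not called.

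The genes that carry, make and destroy RA were split between directions. Of 12 tested, 3 were called higher and 1 lower, with a median log2FC of 0.36. Cyp26b1, which encodes an RA-degrading enzyme, stood at 9.24, 14.6 and 13.7 CPM in Ctrl and at 31.7, 29.0 and 40.2 CPM in Ctrl MCM2-2A (log2FC 1.42, SE 0.17, edgeR adjusted p = 0.000115). Stra6, the membrane receptor for retinol-binding protein, which lies opposite Ccdc33, stood at 27.2, 31.6 and 30.9 CPM and at 50.3, 47.2 and 57.1 CPM (log2FC 0.76, SE 0.09, edgeR adjusted p = 0.000112). Both were higher in every Ctrl MCM2-2A library. Dhrs3, which reduces retinaldehyde back to retinol, was lower, at 30.8, 34.1 and 31.8 CPM against 22.2, 19.4 and 22.0 CPM (log2FC -0.62, SE 0.09, edgeR adjusted p = 0.00026). Its call was lost without Ctrl replicate 2 (log2FC -0.58) and without Ctrl MCM2-2A replicate 2 (-0.56). Cyp26a1, the most strongly RA-induced degrading enzyme, stood at 159, 206 and 179 CPM and at 132, 114 and 152 CPM, without overlap, and its log2FC of -0.47 (edgeR adjusted p = 0.00784) did not reach the fold limit. Without Ctrl MCM2-2A replicate 3 it was called lower (-0.58).

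At 0 h the lines already differed at several of these genes, and in the other direction for Dhrs3. Before RA, Dhrs3 stood at 0.938, 1.60 and 2.10 CPM in Ctrl and at 4.2, 4.04 and 4.10 CPM in Ctrl MCM2-2A, so that its mean CPM rose 20.8-fold over 12 h of RA in Ctrl and 5.15-fold in Ctrl MCM2-2A. The interaction term, the RA effect in Ctrl MCM2-2A minus that in Ctrl, was -1.99 on the log2 scale (SE 0.22, edgeR adjusted p = 0.000438). Stra6 rose 36.0-fold and 13.6-fold (interaction -1.39, edgeR adjusted p = 0.00892), and Stra8, an RA-induced gene of meiotic entry, rose 21.3-fold and 8.89-fold (interaction -1.27, edgeR adjusted p = 0.00732). Stra8 stood at 7.45, 11.2 and 15.1 CPM in Ctrl and at 27.9, 24.5 and 30.9 CPM in Ctrl MCM2-2A at 0 h, and the lines overlapped at 12 h (218, 241 and 260 CPM against 244, 227 and 269 CPM). Crabp2, a cellular RA-binding protein, went from 7.73, 7.52 and 8.40 CPM to 17.6, 23.1 and 20.2 CPM in Ctrl, and from 21.4, 19.7 and 17.1 CPM to 22.4, 24.5 and 27.0 CPM in Ctrl MCM2-2A (interaction -1.0, edgeR adjusted p = 0.00732). For Stra6, Stra8 and Crabp2 the level at 0 h was higher in each Ctrl MCM2-2A library than in any Ctrl library. Cyp26a1 went the other way at 0 h, at 2.87, 3.26 and 3.17 CPM in Ctrl and 0.929, 0.824 and 1.24 CPM in Ctrl MCM2-2A, and its RA folds of 58.4 and 133 gave an interaction of 1.08 that missed the threshold (edgeR adjusted p = 0.0671). Rarb rose 29.6-fold and 16.9-fold.

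**Figure D3:**
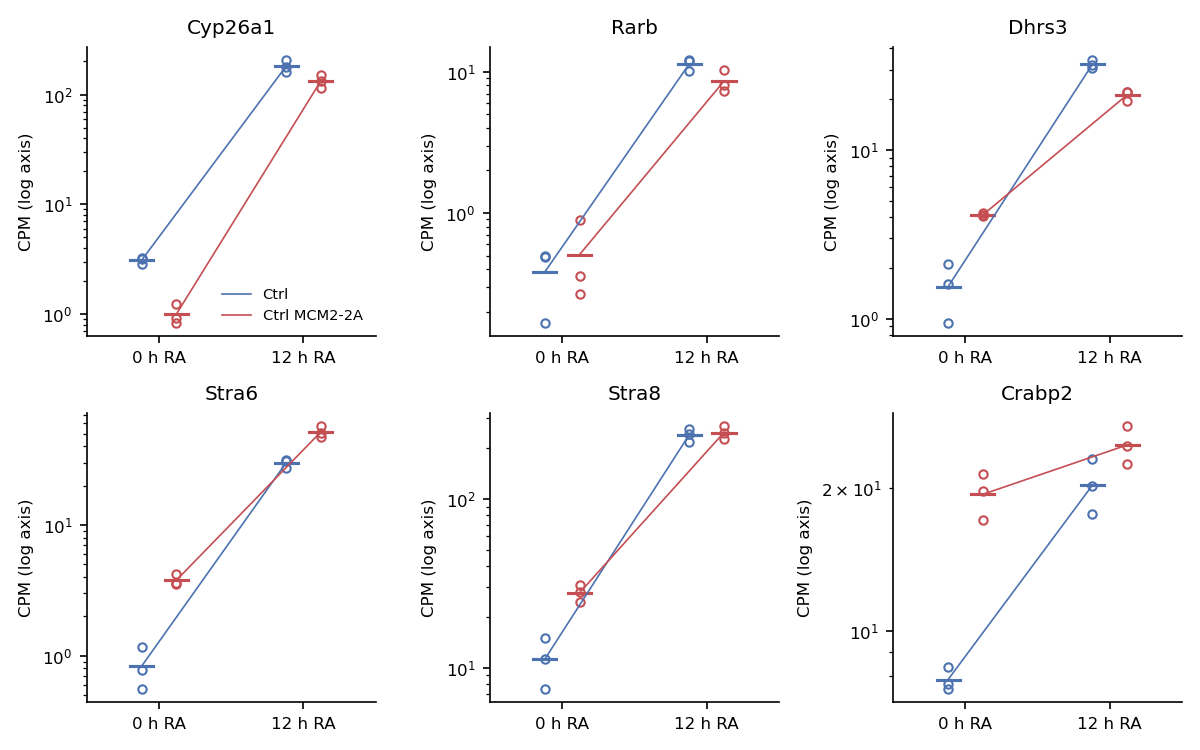
CPM (log axis) of 6 RA-responsive genes in each library of Ctrl and Ctrl MCM2-2A at 0 and 12 h of RA, with points for libraries and lines joining the means. At 0 h Dhrs3, Stra6, Stra8 and Crabp2 are higher and Cyp26a1 is lower in Ctrl MCM2-2A. At 12 h the lines lie closer together for these genes, with Dhrs3 and Cyp26a1 in Ctrl MCM2-2A below Ctrl.

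Over all features, the interaction called 57 of 18808 (0.303%), 9 with a larger (0.0479%) and 48 with a smaller or more negative RA effect (0.255%) in Ctrl MCM2-2A, while 2212 had an unadjusted p under 0.05. Of these 57, 51 lay outside chromosomes 11, 14 and 15. The count rests on single libraries: it was between 14, without Ctrl 0 h replicate 1, and 48 with 1 of the 12 libraries left out. Of the 48, 39 belonged to the genes that RA induced in the dPOLE4 libraries, which share no library with this test, and 3 to those it repressed. The dPOLE4 cells are of the Ctrl line, whose RA effect the interaction subtracts, so this class can favour negative values. With the class from dPOLE4 MCM2-2A libraries, 26 induced genes had a called negative interaction and 4 a positive one. Among features with at least 5 CPM in a group and no overlap between lines at 12 h, the interaction was most negative, besides Dhrs3, for Gbp4 (-2.96), Adcy5 (-1.61), Rhobtb1 (-1.61) and Piwil4 (-1.47), and most positive for Gabrp (2.46), 1700108F19Rik (1.54), Atf3 (1.38), Igfbp3 (0.77) and Soat1 (0.67). Rhobtb1, which lies opposite A930033H14Rik, was at 0.828, 0.608 and 0.879 CPM in Ctrl and 6.28, 4.79 and 7.09 CPM in Ctrl MCM2-2A at 0 h, and at 11.7, 10.8 and 11.5 CPM against 31.3, 25.1 and 33.2 CPM at 12 h. Gabrp, a GABA receptor subunit gene, was below 1 CPM in every 0 h library and reached 1.37, 1.65 and 1.85 CPM in Ctrl against 6.51, 7.99 and 6.83 CPM in Ctrl MCM2-2A at 12 h. Adcy5, an adenylate cyclase gene, was called lower at 12 h (log2FC -0.70), and that call was lost without Ctrl replicate 2 or 3 or any 1 of the Ctrl MCM2-2A libraries (-0.73 to -0.60).

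The genes that RA moved in the dPOLE4 line were taken as a class defined without these libraries. There 2126 of 18176 features were called (11.7%), 1305 induced (7.18%) and 821 repressed (4.52%). Of the induced class, 1291 were tested between lines at 12 h in DMSO, 172 were called higher and 116 lower, and the median log2FC was 0.06. At 0 h, 328 of 1166 were called higher and 87 lower, with a median of 0.31. The median interaction of the class was -0.26, and 75.1% of its genes had a value below 0, against 51.5% of all features. The class came from the line whose RA effect the interaction subtracts, which can favour values below 0. Outside the 3 chromosomes, 134 of 1058 induced genes were called higher and 78 lower at 12 h. The class was also taken from dPOLE4 MCM2-2A libraries (1424 of 18284 called, 7.79%, with 4.3% induced and 3.49% repressed). In it, 132 of 776 induced genes were called higher and 68 lower at 12 h, with a median log2FC of 0.14. The median interaction of these induced genes was -0.12 and 59.3% lay below 0. Of the repressed class from the dPOLE4 line, 95 of 754 were called higher and 134 lower, with a median of -0.04, and outside the 3 chromosomes 64 and 96 of 596. Its median interaction was 0.05, with 42.7% below 0. With classes from the MCM2-2A line, 86 of 606 repressed genes were called higher and 86 lower (median 0.01), and their median interaction was -0.08, with 62.2% below 0, so neither the imbalance nor the sign of the interaction of the repressed class held.

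Hox genes, which pattern the body axis, were called higher or not at all. Of 39 in the table, 24 passed the filter on low counts, 9 were called higher and 0 lower, with a median log2FC of 0.35, and of the 12 tested outside the 3 chromosomes 3 were called higher. Hox genes at low level can pass that filter through Ctrl MCM2-2A alone, so these counts are no test of the group. Hoxb8 stood at 2.44, 2.53 and 2.88 CPM in Ctrl and at 9.94, 8.05 and 12.1 CPM in Ctrl MCM2-2A (log2FC 1.92, SE 0.18, edgeR adjusted p = 1.98e-05), on chromosome 11, whose median was below 0. Hoxa9 stood at 0.683, 0.706 and 0.434 CPM and at 1.90, 2.14 and 2.30 CPM (log2FC 1.74, SE 0.26), and neither gene overlapped between lines. Hoxb9 (0.98) and Hoxc4 (1.51) were called too. These 4 were called in every fit with 1 library left out. Hoxa4 (log2FC 0.61, opposite Hoxaas3) lost its call without Ctrl replicate 1 (0.53) or 3 (0.59) or Ctrl MCM2-2A replicate 2 (0.58) or 3 (0.50). Hoxb6 (0.94) lost it without replicate 1 or 3 of either group (0.80 to 0.96), Hoxb7 (1.20) and Hoxd1 (2.04) without any library but Ctrl MCM2-2A replicate 2 (0.92 to 1.24 and 1.79 to 2.33), and Hoxc13 (1.41) without replicate 1 of either group (1.33 and 1.34). The early RA target Hoxb1 stood at 21.2, 24.6 and 21.6 CPM and at 23.6, 17.7 and 19.6 CPM, overlapping between lines. Before RA, 7 of the 39 Hox genes passed the filter on low counts.

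The TALE and Cdx homeobox genes, whose products bind with Hox proteins or lie upstream of them, were called lower or not at all. Of 12 tested, 5 were called lower and 0 higher, with a median log2FC of -0.22. Meis1, a Hox cofactor on chromosome 11, stood at 16.6, 16.3 and 19.4 CPM in Ctrl and at 6.30, 7.15 and 6.98 CPM in Ctrl MCM2-2A (log2FC -1.38, SE 0.11, edgeR adjusted p = 1.07e-05). Meis2 (log2FC -0.92), a further cofactor, was lower outside the 3 chromosomes and without overlap. Cdx2 (-1.26), a caudal-type gene, lost its call without Ctrl MCM2-2A replicate 1 (-1.05), and Cdx4 stood at 1.27, 1.41 and 0.706 CPM against 0.103, 0.0563 and 0 CPM.

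Genes of pluripotency were called in both directions, and their counts are to be read against the 14.5% of all features called. In the naive list 1 of 16 was called higher and 2 lower (median -0.12), in the general list 2 of 13 higher and 0 lower (median 0.03), and in the formative list 2 of 12 higher and 1 lower (median -0.16). Dppa3, a maternal factor of naive cells, stood at 12.1, 16.9 and 17.5 CPM in Ctrl and at 2.72, 4.17 and 4.23 CPM in Ctrl MCM2-2A (log2FC -2.09, SE 0.20, edgeR adjusted p = 2.34e-05). Utf1 (log2FC 0.80) and Dppa5a (0.70), both markers of undifferentiated cells, were higher in each Ctrl MCM2-2A library. Pecam1 was lower (-1.05, on chromosome 11), and Tbx3 was higher (0.60, opposite Tbx3os1), a call lost without Ctrl MCM2-2A replicate 3 (0.55). In the formative list Dnmt3a, the de novo DNA methyltransferase, stood at 362, 419 and 361 CPM and at 688, 681 and 756 CPM (log2FC 0.87). The chromosome 14 gene Otx2 was also higher (1.18), beside a median of 0.98 in the raised run of that chromosome. Krt18 was the 1 called lower, and in the dTAG cultures this list had 2 called higher and 6 lower. Without Ctrl replicate 1, Pou3f1 (-0.59), Sox4 (-0.60) and Zic2 (-0.62) were called lower at 12 h too. Of 9 LIF pathway genes, the shared receptor subunit Il6st was the 1 called, lower (log2FC -0.80, edgeR adjusted p = 7.64e-06).

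Nodal pathway genes were called higher or not at all, and 5 of the 6 called lay outside the 3 chromosomes. Of 15 tested, 6 were called higher and 0 lower, with a median log2FC of 0.28, and the summed level was 1006 to 1070 CPM in Ctrl and 1555 to 1664 CPM in Ctrl MCM2-2A. The ligand Nodal stood at 52.4, 47.7 and 43.9 CPM in Ctrl and at 94.2, 89.4 and 98.4 CPM in Ctrl MCM2-2A (log2FC 0.94, SE 0.08, edgeR adjusted p = 9.18e-06). Its coreceptor Tdgf1 stood at 139, 130 and 113 CPM and at 333, 345 and 356 CPM (log2FC 1.42, SE 0.08, edgeR adjusted p = 9.81e-07). Lefty2, a secreted inhibitor that Nodal signalling induces, stood at 32.8, 36.6 and 22.5 CPM and at 142, 128 and 150 CPM (log2FC 2.17, SE 0.14, edgeR adjusted p = 2.98e-06). All 3 were without overlap and were also called higher at 0 h (0.82, 1.13 and 2.17) and in the dTAG cultures (1.19, 1.31 and 2.45). Lefty1, the other inhibitor, was higher by 0.70, a call lost without Ctrl replicate 1 (0.67) or 3 (0.55) or Ctrl MCM2-2A replicate 1 (0.70). The cofactor Foxh1 (0.71, chromosome 15) was higher too.

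Wnt pathway genes and primitive streak markers were called mainly lower. Of 27 Wnt genes, 2 were called higher and 7 lower (median -0.32), and of the 19 outside the 3 chromosomes 2 were called in each direction. Outside, Sp8 (-0.69) lost its call without any 1 library but Ctrl replicate 2 (-0.73 to -0.58), and Lgr5 (1.74), at about 1 CPM or less, without any 1 of the 6 (1.51 to 1.96), which left Sp5 lower and Lrp5 higher. Sp5, a Wnt target on chromosome 2, stood at 7.94, 7.06 and 5.48 CPM in Ctrl and at 0.359, 0.281 and 0.148 CPM in Ctrl MCM2-2A (log2FC -4.63, SE 0.29, edgeR adjusted p = 2.13e-06). T, the streak and mesoderm factor Brachyury, stood at 15.8, 12.3 and 11.9 CPM and at 0.615, 1.29 and 1.11 CPM (log2FC -3.78, SE 0.23, edgeR adjusted p = 1.83e-06). Both were called lower at 0 h too (-4.79 and -4.85). Wnt3 (-1.92), the receptor Fzd2 (-1.3) and the feedback gene Axin2 (-0.94) were lower on chromosome 11, each beyond that chromosome's median. Of 7 streak markers, T, Wnt3 and Fgf8 (-2.08) were called lower and 0 higher (median -0.51), and their summed level was 33.7 to 41.1 CPM in Ctrl against 17.1 to 19.8 CPM. Mixl1, another streak gene, stood at 1.37, 1.29 and 1.41 CPM and at 2.10, 1.80 and 2.23 CPM and was not called, while its interaction was 1.86 (edgeR adjusted p = 0.00877).

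Neural markers were called lower or not at all. Of 18 listed 11 were tested, 6 were called lower and 0 higher, with a median log2FC of -0.86, and 5 of the 6 lay outside the 3 chromosomes. Pax6, a neural progenitor factor, stood at 10.5, 13.4 and 12.2 CPM in Ctrl and at 2.82, 4.0 and 3.86 CPM in Ctrl MCM2-2A (log2FC -1.78, SE 0.16, edgeR adjusted p = 1.75e-05). Nes, the intermediate filament of progenitors, stood at 79.9, 87.6 and 68.2 CPM and at 34.4, 35.3 and 35.3 CPM (log2FC -1.19, SE 0.09, edgeR adjusted p = 6.13e-06). Neither gene overlapped. Zeb2 (-1.87), Ncam1 (-1.13) and Sox3 (-0.86) were lower as well, and Sox21 (-0.92) lost its call without Ctrl MCM2-2A replicate 1 (-0.85) or 2 (-0.96). Neurog2 and Olig2 were among the 7 of the 18 that were below 1 CPM in every library. The summed level was 185 to 221 CPM in Ctrl and 127 to 140 CPM in Ctrl MCM2-2A.

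Endoderm markers were called mainly higher. Of 16 tested, 5 were called higher and 1 lower, with a median log2FC of 0.31. Gata4, an endoderm factor inside the raised run of chromosome 14, stood at 2.37, 1.35 and 1.95 CPM in Ctrl and at 9.38, 10.2 and 11.8 CPM in Ctrl MCM2-2A (log2FC 2.39, SE 0.19, edgeR adjusted p = 8.42e-06). Gata6, its partner on chromosome 18, stood at 13.1, 12.2 and 12.2 CPM and at 20.1, 20.9 and 21.9 CPM (log2FC 0.72, SE 0.09, edgeR adjusted p = 0.000116). Both were without overlap, and Sox7 (1.47, chromosome 14) and Amn (1.54) were higher too. The raised run of chromosome 14 had a median of 0.98. Hnf4a (1.10) lost its call without replicate 1 of either group (1.10 without that of Ctrl MCM2-2A and 1.23 without that of Ctrl) or Ctrl MCM2-2A replicate 3 (1.03). Sparc, a matrix gene on chromosome 11, was lower (-0.67). Afp and Ttr, markers of mature visceral endoderm, were below 1 CPM in every library, and the summed level overlapped between lines, at 604 to 738 CPM and 531 to 647 CPM.

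Fibroblast, smooth-muscle and trophoblast markers were also counted, as types such a culture could hold. Of 7 fibroblast markers tested, 5 were called lower and 1 higher (median -2.05), and their summed level was 111 to 147 CPM in Ctrl and 32.0 to 36.3 CPM in Ctrl MCM2-2A. Tagln, an actin-binding smooth-muscle gene that lies opposite Pcsk7, stood at 80.1, 73.9 and 56.6 CPM and at 8.66, 11.5 and 8.76 CPM (log2FC -2.88, SE 0.15, edgeR adjusted p = 8.84e-07). Acta2, smooth-muscle actin, stood at 17.1, 19.1 and 13.5 CPM and at 0.615, 0.957 and 1.71 CPM (log2FC -4.01, SE 0.25, edgeR adjusted p = 2.44e-06). The collagen gene Col1a1, on chromosome 11, was lower (log2FC -2.03). The defining fibroblast genes Postn, Dcn and Lum were below 1 CPM in all libraries, and Thy1, a surface protein, was the 1 called higher, at 1.5, 1.18 and 1.36 CPM against 11, 7.94 and 12.4 CPM (log2FC 2.90, SE 0.21, edgeR adjusted p = 4.9e-06). Of 7 trophoblast markers 1 was called higher and 3 lower (median -0.37), among them Gata3, at 21.2, 18.7 and 21.7 CPM against 2.72, 2.76 and 2.08 CPM (log2FC -3.03, SE 0.13, edgeR adjusted p = 3.96e-07). The part of these markers in the other results was not tested.

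**Figure D4:**
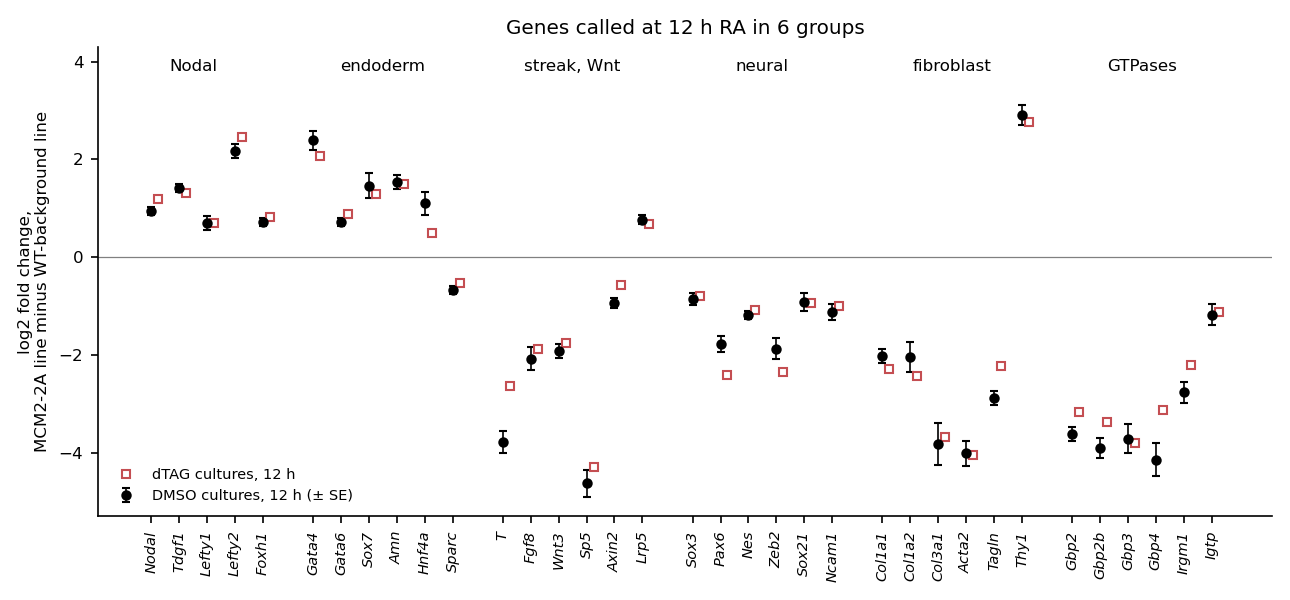
Log2 fold change between lines at 12 h of RA (points, with SE as bars) for called genes of 6 groups, beside the value in the dTAG cultures (squares). Nodal genes lie above 0, neural and GTPase genes lie below 0, and Lrp5, Thy1 and Sparc lie apart from the rest of their groups.

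Interferon-inducible GTPases, a group chosen after its values were seen, were all called lower where tested. These proteins attack the vacuoles of intracellular pathogens. Of 18 listed 10 were tested and all 10 were called lower, with a median log2FC of -3.13, and 6 of the 10 lay outside the 3 chromosomes. Such genes can pass the filter on low counts through Ctrl alone, so this count is no test of the group. Gbp2b stood at 35.3, 21.9 and 31.9 CPM in Ctrl and at 2.2, 2.03 and 1.71 CPM in Ctrl MCM2-2A (log2FC -3.92, SE 0.21, edgeR adjusted p = 9.53e-07). Irgm1, on chromosome 11, stood at 16.9, 11.8 and 14.4 CPM and at 2.15, 2.81 and 1.34 CPM (log2FC -2.77, SE 0.22, edgeR adjusted p = 8.09e-06). Gbp3 (-3.72) and Gbp2 (-3.62) were lower by a similar size, and none of these overlapped. Gbp4 stood at 6.05, 3.59 and 5.92 CPM against 0.410, 0.225 and 0.223 CPM at 12 h (log2FC -4.15) and at 3.7, 3.37 and 4.69 CPM against 1.64, 2.02 and 1.69 CPM at 0 h. Gbp9 (-1.45) lost its call without Ctrl replicate 1 (-1.20) or Ctrl MCM2-2A replicate 2 (-1.40) or 3 (-1.33). The Gbp genes are near copies of each other in a cluster, so reads may be split between them.

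Outside the 3 chromosomes the largest called increases, among protein-coding genes with at least 5 CPM in a group, besides Thy1, Lefty2 and the germline gene Tdrd1, were a mixed set. Alppl2, an alkaline phosphatase, stood at 1.46, 0.647 and 1.09 CPM in Ctrl and at 8.41, 4.95 and 8.46 CPM in Ctrl MCM2-2A (log2FC 2.66, SE 0.29, edgeR adjusted p = 5.46e-05). Nupr1, a stress-induced nuclear protein, stood at 2.96, 4.53 and 3.75 CPM and at 19.1, 16.8 and 19.7 CPM (log2FC 2.32, SE 0.15, edgeR adjusted p = 3.11e-06). Epha8, an ephrin receptor, Trf, transferrin, and Cyp2b23 were higher by 2.16, 1.97 and 1.87, each without overlap. On chromosome 11 the largest were decreases of Krt19, a keratin (-2.48), and Igfbp3, a growth factor binding protein (-2.43), beside Irgm1. On chromosome 14 they were 1700108F19Rik (-3.03), Gata4 (2.39) and Gm48914 (-2.32), and on chromosome 15 the growth hormone receptor Ghr (-2.37), the keratin Krt79 (2.06) and the intermediate filament Prph (2.04), so that Ghr moved against its chromosome.

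Germline genes were called in both directions. Of 24 tested, 8 were called higher and 3 lower, with a median of 0.36, and 8 of the 11 calls held in every fit with 1 library left out. Tdrd1, a piRNA pathway gene, stood at 1.56, 1.65 and 1.90 CPM in Ctrl and at 6.97, 8.61 and 8.76 CPM in Ctrl MCM2-2A (log2FC 2.23, SE 0.17, edgeR adjusted p = 6.5e-06). Sycp3, of the meiotic chromosome axis and lying opposite Chpt1, stood at 6.41, 7.64 and 8.52 CPM and at 24.3, 20.9 and 21.4 CPM (log2FC 1.56, SE 0.12, edgeR adjusted p = 8.09e-06). Taf7l (1.41) and Sycp1 (1.29) were higher, and the testis tubulin Tuba3a (-0.86) was lower. Of 15 genes of the 2-cell-like state, 4 were called higher and 0 lower, with a median of 1.02, and the called ones were Usp17la, Usp17ld and Usp17le, which are near-identical copies, and Ddit4l. Usp17la (1.59) lost its call without Ctrl replicate 3 (1.40) or Ctrl MCM2-2A replicate 1 (1.36). Zscan4c stood at 6.90, 1.23 and 3.91 CPM in Ctrl and at 13.3, 7.26 and 10.7 CPM in Ctrl MCM2-2A and was not called, but without Ctrl replicate 1 it was called higher (1.97), as were its near copies Zscan4b (2.21), Zscan4e (1.74) and Zscan4f (2.10). At 0 h 10 genes of this list were called higher, and in the dTAG cultures 14.

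Imprinted genes were called in both directions. Of 31 tested, 2 were called higher and 7 lower, with a median log2FC of -0.27. Plagl1, a growth-regulating zinc finger gene, stood at 65.1, 48.9 and 59.1 CPM in Ctrl and at 8.87, 8.89 and 8.46 CPM in Ctrl MCM2-2A (log2FC -2.75, SE 0.12, edgeR adjusted p = 3.3e-07). Grb10, a growth inhibitor on chromosome 11, was lower (-1.99), as were Ndn (-1.17), Peg10 (-0.84) and Mest (-1.08), which lies opposite Copg2. Igf2 (0.90, opposite Igf2os) and Phlda2 (0.75) were higher.

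Chromatin genes were called on the 3 chromosomes and, for histones and DNA methylation genes, outside them. Of 32 Polycomb genes 1 was called higher and 1 lower (median -0.08), and both lay on the 3 chromosomes. Suz12, a core PRC2 subunit on chromosome 11, stood at 501, 439 and 512 CPM in Ctrl and at 268, 288 and 243 CPM in Ctrl MCM2-2A (log2FC -0.89, SE 0.08, edgeR adjusted p = 1.79e-05), while Cbx7 on chromosome 15 was higher (0.65), a call lost without Ctrl MCM2-2A replicate 3 (0.57). Of 22 genes of H3K9 methylation and repeat silencing, 2 were called in each direction (median -0.01) and none outside, with Cbx5 (0.65) on chromosome 15 and Mphosph8 (1.34) on chromosome 14 higher, and Cbx1 (-0.60) and Morc2a (-0.59) on chromosome 11 lower. The call of Cbx1 was lost without Ctrl replicate 2 (-0.51) or Ctrl MCM2-2A replicate 1 (-0.58) or 2 (-0.56), and that of Morc2a without Ctrl replicate 2 (-0.58) or Ctrl MCM2-2A replicate 1 (-0.57). Of 24 histone chaperones, Supt16 on chromosome 14, a subunit of FACT lying opposite Rpgrip1, was the 1 called (1.11). Of 40 other replication genes, Wdhd1 on the same chromosome was the 1 called (1.28). The values of Mphosph8, Supt16 and Wdhd1 are to be read beside the median of 0.98 in the raised run of chromosome 14. The replication-dependent histones, whose reads are shared among near copies, had 2 of 68 called higher and 1 lower (median -0.11), and of 11 replacement histones H3f3b on chromosome 11 was the 1 called (-0.79). Of 12 DNA methylation genes, Dnmt3a and Gadd45a were called higher and 0 lower (median 0.12), and Gadd45a (0.59) lost its call without replicate 3 of Ctrl (0.55) or of Ctrl MCM2-2A (0.52).

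Targets of p53 and genes of hypoxia and glycolysis were called mainly higher. Of 17 p53 targets, 5 were called higher and 0 lower, with a median log2FC of 0.36. Pmaip1, which encodes the death-promoting protein NOXA, stood at 7.16, 4.53 and 6.41 CPM in Ctrl and at 16.5, 16.4 and 18.0 CPM in Ctrl MCM2-2A (log2FC 1.44, SE 0.15, edgeR adjusted p = 3.92e-05), beside Gdf15 (1.49), Sesn2 (0.70) and Bbc3 (0.65). Of 25 hypoxia and glycolysis genes, 6 were called higher and 1 lower (median 0.26), and 4 of the 7 calls held in every fit with 1 library left out. Ddit4, a stress-induced inhibitor of mTORC1, stood at 46.7, 41.5 and 30.1 CPM and at 113, 70.8 and 112 CPM (log2FC 1.29), and Vegfa (0.80) and Pdk1 (0.66) were higher. The 13 mitochondrial-genome genes had a median of 0.12 and were not called by edgeR, although mt-Nd3 was without Ctrl MCM2-2A replicate 3 (2.26).

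**Figure D5:**
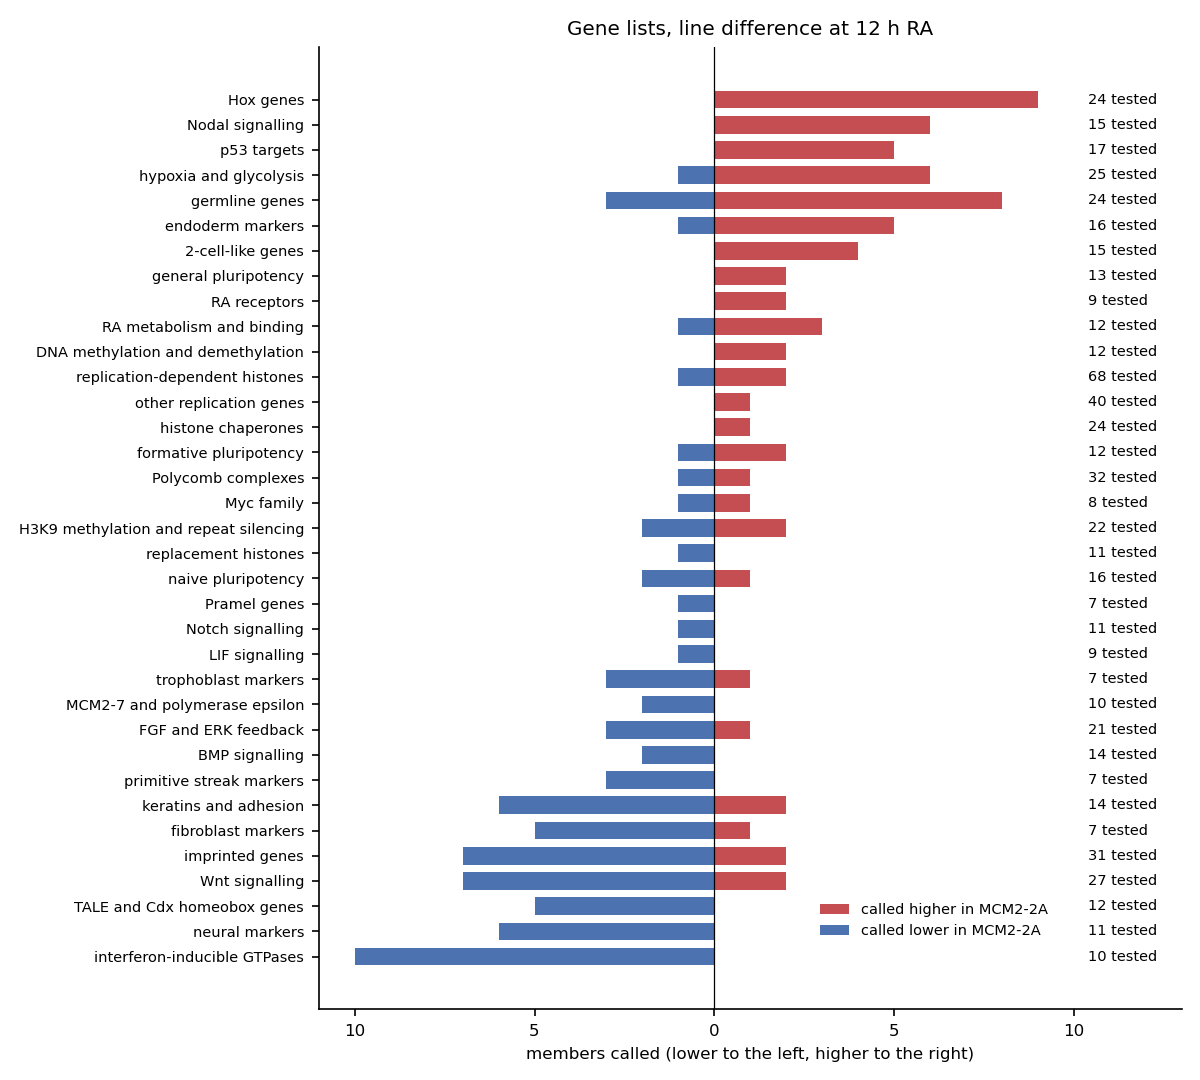
Number of genes called higher (to the right) and lower (to the left) in Ctrl MCM2-2A at 12 h for each gene list with at least 1 call, with the number tested beside each bar. Neural markers have 6 of 11 lower, Nodal genes 6 of 15 higher and Hox genes 9 of 24 higher. Low-count members can pass the filter through 1 group alone, which can tilt these counts. The interferon-inducible GTPases, chosen after their values were seen, have 10 of 10 lower.

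Of 849 repeat subfamilies tested, 20 were called (2.36%), 7 higher and 13 lower. The median log2FC of the 849 was 0.11, and 68.6% lay above 0. That median was -0.17 at 0 h and 0.05 in the dTAG cultures. The young LINE-1 subfamily L1Md_A stood at 1457, 1254 and 1583 CPM in Ctrl and at 2442, 2625 and 2155 CPM in Ctrl MCM2-2A (log2FC 0.73, SE 0.10, edgeR adjusted p = 0.000226). Its log2FC was 0.33 at 0 h and 0.61 in the dTAG cultures. L1Md_T had a log2FC of 0.55 and was not called, although it was without Ctrl replicate 3 (0.63) or Ctrl MCM2-2A replicate 3 (0.62). The endogenous retrovirus MMERGLN-int stood at 247, 238 and 255 CPM and at 479, 458 and 483 CPM (log2FC 0.92, SE 0.06, edgeR adjusted p = 2.44e-06). Its log2FC was 0.95 at 0 h and 0.28 in the dTAG cultures. ETnERV3-int stood at 75.2, 50.1 and 83.7 CPM and at 13.4, 17.8 and 12.4 CPM (log2FC -2.28, SE 0.19, edgeR adjusted p = 1.08e-05), without overlap. At lower levels IAPEy-int (-2.51), MLT1J1-int (-3.89) and RLTR13B2 (-1.5) were lower and L1MEb (1.36) was higher. IAPLTR3-int (0.87) lost its call without Ctrl replicate 3 (0.82) or Ctrl MCM2-2A replicate 1 (0.88) or 2 (0.76), and MER91A (0.77) without Ctrl replicate 1 (0.73) or 3 (0.75) or Ctrl MCM2-2A replicate 1 (0.82) or 2 (0.64). MERVL-int (0.22), the retrovirus of 2-cell-like cells, and IAPEz-int (-0.21) were not called. Each of these counts pools all copies of a subfamily, and single copies were not told apart.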

How the data were processed

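Total RNA depleted of rRNA was sequenced as stranded 100-bp paired-end libraries, 3 biological replicates per group. Per the study's methods, the authors trimmed reads with cutadapt 4.2, mapped them to mm10 with STAR 2.7.11a keeping multimapping reads, counted genes and repeat subfamilies with TEcount (TEtranscripts 2.2.3, GENCODE M25), and deposited raw counts per library, so reads of near copies are shared among them. The strand setting of the counting is not given in the sources used here. The labels' treatment text gives other RA times than the titles, which were followed. The counts covered 55487 genes and 1146 repeat subfamilies. Groups were compared with edgeR 4.0.16 in R 4.3.3 (filterByExpr, TMM over the features that passed it, glmQLFit and glmQLFTest). Calls took a Benjamini-Hochberg adjusted p under 0.01 and a log2 fold change over 0.58 in size, and CPM were taken over all libraries used. SE is the log2 fold change divided by the root of F. Positions came from GENCODE M21 (GRCm38), which held 55227 of the genes, and 260 were not matched. Depth sets the precision: CPM below about 1 rest on few counts. Tests were run on simulated data first. Named were the 8 genes with the largest change in each direction outside the 3 chromosomes, with at least 5 CPM in a group, 3 per chromosome, 5 interaction features and 4 repeats per direction, and members of 35 gene lists. The comparison and the lists were chosen with earlier results of these data known. DESeq2 1.42.0, glmTreat, other scalings and filters, a replicate block and leaving out each library were alternatives. A few genes counted in the lists are not reported here by name.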

Additional observations from a re-analysis of the deposited data

Results flagged for a closer look

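The change of the line difference from 0 to 12 h of RA, tested as an interaction, was called for 57 features. That number fell to 14 without Ctrl 0 h replicate 1 and to 2 with glmTreat. LIF was withdrawn as RA was given, and the effects of these cannot be told apart. Among the named genes the interaction was negative for Gbp4 (-2.96), Dhrs3 (-1.99), Adcy5 (-1.61), Rhobtb1 (-1.61), Piwil4 (-1.47), Stra6 (-1.39), Fgfr4 (-1.37), Stra8 (-1.27), Crabp2 (-1.0), Pecam1 (-0.78), Mest (-0.74), Klf4 (-0.68) and Dnmt3a (-0.60). It was positive for Gabrp (2.46), Mixl1 (1.86), 1700108F19Rik (1.54), Atf3 (1.38), Igfbp3 (0.77) and Soat1 (0.67).

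Fgfr4, a receptor for fibroblast growth factors, stood at 1.44, 1.82 and 1.71 CPM in Ctrl and at 6.55, 6.22 and 6.25 CPM in Ctrl MCM2-2A at 0 h, and at 6.34, 6.29 and 5.16 CPM against 8.10, 8.84 and 9.57 CPM at 12 h. The lines did not overlap at either time, and their distance was smaller at 12 h. Klf4, a naive pluripotency factor, stood at 111, 118 and 125 CPM against 199, 161 and 159 CPM at 0 h, and at 73.0, 76.6 and 69.2 CPM against 65.7, 63.3 and 70.7 CPM at 12 h, where the lines overlapped. Atf3, a stress-response factor, was higher in Ctrl at 0 h (8.56, 6.25 and 6.54 CPM against 4.25, 3.15 and 4.06 CPM) and lower in Ctrl at 12 h (6.96, 7.11 and 6.14 CPM against 8.97, 10.2 and 9.65 CPM). The 12 h difference of Atf3 did not reach the fold limit (log2FC 0.49).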

How the results depend on the processing

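With glmTreat, which tests against a fold of 1.5, the 12 h count was 793 (373 higher, 420 lower) and that outside chromosomes 11, 14 and 15 was 477, against 2589 and 1602. The same test gave 1287 at 0 h, 1359 in the dTAG cultures and 2 for the interaction, and Pole4 kept its value (-0.75) with an adjusted p of 0.115. Apart from the replicate block (2007), the other settings gave 2294 to 3178 features at 12 h, among them 2402 with DESeq2. Leaving out 1 library gave 1982 to 2537 at 12 h, 1142 to 1580 outside the 3 chromosomes, 2850 to 3267 at 0 h and 3027 to 3281 with dTAG. The interaction count was 116 with DESeq2 and 219 without a filter, and 14 to 48 with 1 library left out: at 0 h 14 and 24 without Ctrl replicates 1 and 2, and 30, 25 and 32 without Ctrl MCM2-2A replicates 1, 2 and 3, and at 12 h 36 and 29 without Ctrl replicates 2 and 3, and 17 and 21 without Ctrl MCM2-2A replicates 1 and 2. The cause was not tested. With RA classes set at a log2 fold change over 1, 113 induced genes were called higher and 56 lower, and 30 repressed genes higher and 49 lower. With classes from the MCM2-2A line, 132 induced genes were called higher and 68 lower, and 86 repressed genes lower and 86 higher. The Myc family had 1 call in place of 2 with TMM over genes outside the 3 chromosomes, and Mycl also lost its call with DESeq2 size factors (-0.58), TMM over genes (-0.58) and all 4 groups of 12 h (-0.57). Of 172 named features called at 12 h, 36 lost the call without 1 library, 78 with glmTreat and 19 under another setting, and no value changed sign.

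With the replicate number as a block, 2007 features were called at 12 h, 1155 outside the 3 chromosomes, and 34 (7 higher, 27 lower) for the interaction. Same-numbered libraries did not deviate together at 12 h (correlations -0.25 to 0.06, against -0.09 to 0.26 for other pairs). At 0 h they did so weakly (0.07 to 0.13, against -0.11 to -0.01). Whether the numbers pair libraries is therefore not settled.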

Other observations

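Further lists were counted in the same way. Of 14 keratin and adhesion genes, 2 were called higher and 6 lower (median log2FC 0.05). The intermediate filament gene Vim stood at 160, 125 and 127 CPM in Ctrl and at 64.5, 65.3 and 63.2 CPM in Ctrl MCM2-2A (-1.12), and Cdh2, N-cadherin, at 18.7, 13.1 and 14.9 CPM and at 3.49, 4.56 and 3.19 CPM (-2.08), both without overlap. Krt8 (-1.19) and Krt18 (-1.18), the paired keratins of simple epithelia, were lower although they lie on chromosome 15, and Krt7 (1.44) on the same chromosome was higher. Of 21 genes of FGF signalling and its feedback 1 was called higher and 3 lower (median -0.14), among them the phosphatase Dusp4 (-0.94). Without Ctrl MCM2-2A replicate 1 the 4 calls became 2, since Fgf15 (0.61), the 1 called higher, and Fgf17 (-0.81) were lost, and Fgf15 was also lost without Ctrl MCM2-2A replicate 2 (0.77), Ctrl replicate 1 (0.70) or 3 (0.66). Of 14 BMP genes, the targets Id2 (-0.86) and Msx1 (-1.18) were called lower and 0 higher (median -0.09), a share near the 14.5% of all features. Of 11 Notch genes the ligand Jag1 was the 1 called (-0.69, median -0.14). Of 8 Myc family genes 1 was called in each direction (median 0.11), and 0 of these 2 edgeR calls held in every fit with 1 library left out. Mxd4 was lost without Ctrl MCM2-2A replicate 1 (0.59) or Ctrl replicate 1 (0.62), and Mycl without replicate 1 (-0.56 and -0.55) or 2 (-0.57 and -0.51) of Ctrl MCM2-2A and Ctrl. Of 7 Pramel genes Pramel6 was called lower (-1.98, median 0.02).

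Windows of 25 tested genes with a median beyond 0.5 in size also lay on other chromosomes, and they were found by searching all windows. A window on chromosome 2 from Proser2 to Gm24806 (6097607 to 10517337) had a median of 1.06 with 8 genes called. On chromosome 12 the window from Ngb to Gm5039 (87097531 to 88320122) had a median of 0.78 with 5 called, and on chromosome X the window from Fmr1nb to Xlr4b (68761839 to 73214333) had a median of -0.71 with 10 called.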
